A study of Mus musculus with 30 samples.

Results

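The genes described here are a small group of the vascular endothelial growth factor (VEGF) family, 3 secreted ligands (*Pgf*, *Vegfa* and *Vegfb*) and 3 receptors (*Flt1*, *Nrp1* and *Nrp2*), followed in bone marrow-derived dendritic cells (BMDCs). They were found by Ensembl identifier in the deposited table of gene counts, where they are 6 of 43629 genes. They were selected on results from these same libraries, and no record names the contrast behind the choice. The fold changes and p-values of these 6 genes therefore describe them and are no independent support. All 6 had enough counts to be tested in every comparison. BMDCs were cultured for 6 days with GM-CSF from marrow of WT mice (C57BL/6J) and of mice lacking *Cacnb3*, the β3 subunit of voltage-gated calcium channels (*Cacnb3*-/-, C57BL/6N), so the genotypes also differ in substrain. The study used adult mice of both sexes. Polyadenylated RNA was sequenced from 5 WT and 5 *Cacnb3*-/- cultures, each with 1 ctrl, 1 0p5h and 1 24h library by the ending of its name, which makes 30 libraries and 5 in each of 6 groups.

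ATP outside the cell is a danger signal to dendritic cells. The stimulus was 500 µM ATP for 30 min, and by the labels cells were collected either directly afterwards or after 24 h. The text of the study places the earlier collection at 30 min after the pulse. For the 24h libraries the treatment field of the labels matches the name. For the other 2 sets they conflict, since the field reads 30min_ATP for libraries named ctrl and vehicle for libraries named 0p5h. The sets keep their library names below, and which of the 2 was unstimulated was not settled. Every direction between them depends on it, and no comparison of genotypes inside a set does. Of 8 immediate early genes, which cells switch on within minutes of a stimulus, 4 were called higher in 0p5h than in ctrl libraries in WT and 6 in *Cacnb3*-/- BMDCs. Of all genes tested 0.176% and 0.29% were called, in either direction. DESeq2, another test, called 6 in each genotype (*Fosb*, *Junb*, *Fos*, *Nr4a1*, *Dusp1* and *Egr1*). The first test called these same genes in each genotype once the culture number entered as a block. *Nr4a1*, for example, had 9.17 ± 2.88 CPM (reads of a gene per 1000000 counted) in ctrl and 180 ± 74.3 CPM in 0p5h libraries of WT BMDCs (SD, n = 5). These genes were listed with earlier results known, and groups were not assigned from them. The labels do not say whether a culture number stands for 1 animal, so p-values measure the spread between these samples.

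Libraries held 8237393 to 32164225 counted reads (median 19556920). Values are in CPM after TMM scaling for library size, and a call by edgeR's quasi-likelihood test needed both a change of at least 2-fold and an adjusted p under 0.05 (Benjamini-Hochberg, over all genes tested). All 6 DC markers (such as *Itgax* and *Cd74*) and all 6 markers of mature migratory DCs (such as *Ccr7* and *Fscn1*) exceeded 1 CPM on average in every group, but so did all 8 macrophage markers and 6 of 8 granulocyte markers. Reads of *Cacnb3* were counted in every library, with 573 to 1331 CPM in those labelled *Cacnb3*-/- and 1035 to 2143 CPM in WT. These ranges overlapped in ctrl and 0p5h libraries and not in 24h libraries. The counts are per gene and do not show which exons were read, so genotypes below are those of the labels. WT culture p974s864 stood apart from the other WT cultures in several of the genes below, and several values that move with it or with *Cacnb3*-/- culture p974s865 are also given without that culture.

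VEGF ligands are secreted dimers that act on tyrosine kinase receptors, best known on the endothelial cells of blood vessels. VEGF-A binds VEGFR1, the product of *Flt1*, and VEGFR2, the product of *Kdr*. VEGF-B and placental growth factor, the product of *Pgf*, bind VEGFR1 but not VEGFR2, and VEGF-C and VEGF-D act mainly through VEGFR3, the product of *Flt4*, on lymphatic vessels. Neuropilins (*Nrp1* and *Nrp2*) bind VEGFs as co-receptors and also bind class 3 semaphorins together with plexins. Myeloid cells are known to secrete VEGF-A, whose gene is a textbook target of the hypoxia-inducible factors (HIF). Neuropilin-1 was first linked to dendritic cells through their contact with T cells.

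Since *Pgf* and *Vegfa* shared much of their pattern over the sets, the 250 bases before the first RefSeq start of each are printed, with the sequence before *Flt1* for its receptor. All are from GRCm38.p6, read 5′ to 3′ on the gene's strand, which is the reverse strand for all 3, and none overlaps an exon of that gene in the counted annotation. Capitals mark matches, on either strand, to the HIF core letters ACGTG or GCGTG, to the AP-1 letters TGANTCA or to the CRE half-site TGACG.
*Pgf*, chr12:85177314-85177563: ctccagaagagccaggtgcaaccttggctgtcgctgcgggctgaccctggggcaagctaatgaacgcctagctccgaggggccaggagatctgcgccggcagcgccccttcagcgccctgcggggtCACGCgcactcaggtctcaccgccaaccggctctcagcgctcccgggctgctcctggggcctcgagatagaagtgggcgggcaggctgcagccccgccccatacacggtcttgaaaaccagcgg
*Vegfa*, chr17:46032378-46032627: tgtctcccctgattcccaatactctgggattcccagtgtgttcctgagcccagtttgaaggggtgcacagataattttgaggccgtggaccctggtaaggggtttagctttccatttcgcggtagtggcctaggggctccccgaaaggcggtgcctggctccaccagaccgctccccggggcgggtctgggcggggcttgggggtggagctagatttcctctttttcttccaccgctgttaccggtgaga
*Flt1*, chr5:147726012-147726261: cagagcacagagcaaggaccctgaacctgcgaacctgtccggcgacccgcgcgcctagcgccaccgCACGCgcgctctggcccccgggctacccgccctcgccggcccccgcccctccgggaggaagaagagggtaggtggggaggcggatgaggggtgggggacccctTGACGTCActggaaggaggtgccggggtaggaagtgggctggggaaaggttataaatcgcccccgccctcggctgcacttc

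The *Pgf* window held 1 HIF core and no match to the AP-1 or CRE letters, and the *Vegfa* window held no match to any of the 4. A second *Vegfa* window, at a start inside the gene and overlapping its exons, held 2 HIF cores and 1 CRE half-site that overlaps a core, and a second *Pgf* window held no match. The *Flt1* window held 1 HIF core and 2 overlapping CRE half-sites on opposite strands, which form a palindrome. Among 32817 RefSeq promoter windows of the same length, 38.6% held a HIF core, 6.75% the AP-1 letters and 17.7% a CRE half-site. All 10 VEGF genes looked up had at least 1 window, 12 in all. The windows of *Vegfb* and *Nrp2* held 2 HIF cores each and that of *Nrp1* held 1. These are matches of letters and not binding sites, and a window without a match says nothing of the factor.

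*Pgf* (ENSMUSG00000004791, GRCm38 chromosome 12, 85166639 to 85177296, reverse strand) encodes placental growth factor and changed most of the 6 genes. In ctrl libraries of WT BMDCs it had 43.1, 14.4, 49.9, 26.6 and 2.93 CPM in cultures p974s846, p974s850, p974s855, p974s856 and p974s864. In 0p5h libraries of the same cultures, in this order, it had 110.2, 49.8, 86.8, 92.5 and 14.3 CPM. In 24h libraries it had 20.4, 6.57, 22.3, 6.33 and 1.69 CPM. Each WT culture was thus highest in its 0p5h and lowest in its 24h library, and culture p974s864 lay below the other WT cultures in all 3 sets. The *Cacnb3*-/- cultures, taken as p974s843, then p974s851, p974s852, p974s853 and p974s865, had 12.8, 7.49, 7.56, 17.3 and 3.72 CPM in ctrl libraries. They had 52.9, 35.7, 46.6, 103.2 and 21.3 CPM in 0p5h libraries, in this order. In 24h libraries they had 14.8, 12.1, 7.66, 20 and 3.13 CPM. In *Cacnb3*-/- BMDCs the 0p5h libraries lay above all ctrl and all 24h libraries without overlap, which 0.761% of all genes tested did upward from ctrl and 1.83% downward from 0p5h to 24h.

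From ctrl to 0p5h libraries *Pgf* was higher in 5 of 5 cultures of each genotype, as 9.67% of all genes tested were in WT and 9.76% in *Cacnb3*-/- BMDCs. The ratio within a culture ran from 1.74 to 4.89 in WT (median 3.46) and from 4.13 to 6.17 in *Cacnb3*-/- BMDCs (median 5.73). Without regard to culture, the log2 fold change was 1.38 in WT (standard error 0.66, edgeR adjusted p = 1.0) and 2.4 in *Cacnb3*-/- BMDCs (standard error 0.46, edgeR adjusted p = 0.0561). Libraries with the same culture number deviated together in this comparison, and with the number as a block the values were 1.5 in WT (standard error 0.15, edgeR adjusted p = 0.000161) and 2.38 in *Cacnb3*-/- BMDCs (standard error 0.10, edgeR adjusted p = 1.05e-05), both called. Both blocked calls also held without any 1 culture. DESeq2 without the block called *Pgf* in *Cacnb3*-/- BMDCs and not in WT.

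From 0p5h to 24h libraries *Pgf* was lower in 5 of 5 cultures of each genotype, as 14.5% of all genes tested were in WT and 19.1% in *Cacnb3*-/- BMDCs. Its log2 fold change without a block was -2.61 in WT (standard error 0.67, edgeR adjusted p = 0.104) and -2.18 in *Cacnb3*-/- BMDCs (standard error 0.49, edgeR adjusted p = 0.0631). With the culture block the values were -2.76 and -2.19 and both were called (edgeR adjusted p = 0.000209 and 1.45e-05), also without any 1 culture. Without the block, edgeR called the value in WT once culture p974s864 was left out (adjusted p = 0.0267) and that in *Cacnb3*-/- BMDCs once culture p974s865 was left out (adjusted p = 0.0288). From ctrl to 24h libraries *Pgf* was lower in 5 of 5 WT cultures, with a log2 fold change of -1.24 (standard error 0.72, edgeR adjusted p = 0.664). With the block it was -1.26 (standard error 0.16, edgeR adjusted p = 0.00416), which was called. In *Cacnb3*-/- BMDCs *Pgf* was higher at 24h than in ctrl libraries in 4 of 5 cultures, with ratios from 0.843 to 1.62.

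*Vegfa* (ENSMUSG00000023951, GRCm38 chromosome 17, 46016993 to 46032377, reverse strand) encodes VEGF-A and was the most abundant of the 6 genes. WT cultures, in the order above, had 691, 272, 567, 603 and 325 CPM in ctrl libraries. They had 837, 526, 696, 959 and 491 CPM in 0p5h libraries. In 24h libraries they had 422, 153, 345, 306 and 150.4 CPM. The 24h libraries lay below all 0p5h libraries, while ctrl libraries overlapped both. *Cacnb3*-/- cultures, in the order above, had 963, 343, 335, 492 and 528 CPM in ctrl libraries. They had 917, 622, 562, 707 and 800 CPM in 0p5h libraries and 428, 214, 246, 356 and 241 CPM in 24h libraries. The 24h libraries again lay below all 0p5h libraries. Among all genes tested, 2.17% in WT and 1.83% in *Cacnb3*-/- BMDCs were lower at 24h than in 0p5h libraries without overlap.

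The fall of *Vegfa* from 0p5h to 24h libraries in *Cacnb3*-/- BMDCs was the single edgeR call among the 6 genes in any comparison without a block. It had a log2 fold change of -1.27 ( standard error 0.22, edgeR adjusted p = 0.0210), was seen in 5 of 5 cultures, and was lost without culture p974s851, p974s852, p974s853 or p974s865 (adjusted p = 0.130, 0.0559, 0.0958 and 0.0672). In WT the log2 fold change was -1.35 (standard error 0.31, edgeR adjusted p = 0.0673), with 5 of 5 cultures lower. With the culture block both falls were called, at -1.42 in WT and -1.30 in *Cacnb3*-/- BMDCs (edgeR adjusted p = 0.000417 and 5.02e-05), also without any 1 culture. From ctrl to 0p5h libraries *Vegfa* was higher in 5 of 5 WT and 4 of 5 *Cacnb3*-/- cultures, with log2 fold changes of 0.53 and 0.43 (standard error 0.28 in each, edgeR adjusted p = 1.0 in each). With the block, the value in WT passed the adjusted p below 2-fold (0.57, edgeR adjusted p = 0.00286) and that in *Cacnb3*-/- BMDCs did not (0.52, edgeR adjusted p = 0.0590). The latter moved with culture p974s843, the *Cacnb3*-/- culture that was lower in its 0p5h library. Without p974s843 the blocked value was 0.67 and passed below 2-fold (edgeR adjusted p = 4.06e-06). Without each other *Cacnb3*-/- culture it ran from 0.45 to 0.53 and did not pass (edgeR adjusted p from 0.144 to 0.257). From ctrl to 24h libraries *Vegfa* was lower in 5 of 5 cultures of each genotype, at log2 fold changes of -0.83 in WT (standard error 0.34, edgeR adjusted p = 0.559) and -0.84 in *Cacnb3*-/- BMDCs (standard error 0.30, edgeR adjusted p = 0.444). With the block, the value in WT passed the adjusted p below 2-fold (-0.86, edgeR adjusted p = 0.00262). The blocked value in *Cacnb3*-/- BMDCs, kept among the alternatives, passed below 2-fold as well.

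*Vegfb* (ENSMUSG00000024962, GRCm38 chromosome 19, 6982473 to 6987651, reverse strand) encodes VEGF-B and varied least of the 3 ligands. WT cultures had 15.9, 11.1, 9.56, 17.1 and 10.8 CPM in ctrl libraries, in the order above. They had 19.1, 11.9, 11.8, 19 and 12.1 CPM in 0p5h and 16.5, 10.8, 10.2, 13.6 and 9.53 CPM in 24h libraries. *Cacnb3*-/- cultures had 16.9, 13.5, 8.89, 12.3 and 14.3 CPM in ctrl libraries. They had 16.7, 14.2, 7.37, 14.3 and 15.5 CPM in 0p5h and 10.9, 7.82, 6.07, 9.04 and 10.1 CPM in 24h libraries. Groups of 1 genotype overlapped in all pairs of sets, and culture p974s852 was the lowest *Cacnb3*-/- culture in each set. From 0p5h to 24h libraries *Vegfb* was lower in 5 of 5 cultures of each genotype, at log2 fold changes of -0.28 in WT (standard error 0.21, edgeR adjusted p = 0.678) and -0.63 in *Cacnb3*-/- BMDCs (standard error 0.23, edgeR adjusted p = 0.222). With the culture block the value in *Cacnb3*-/- BMDCs was -0.61 and passed the adjusted p below 2-fold (edgeR adjusted p = 0.00425).

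**Figure D1:**
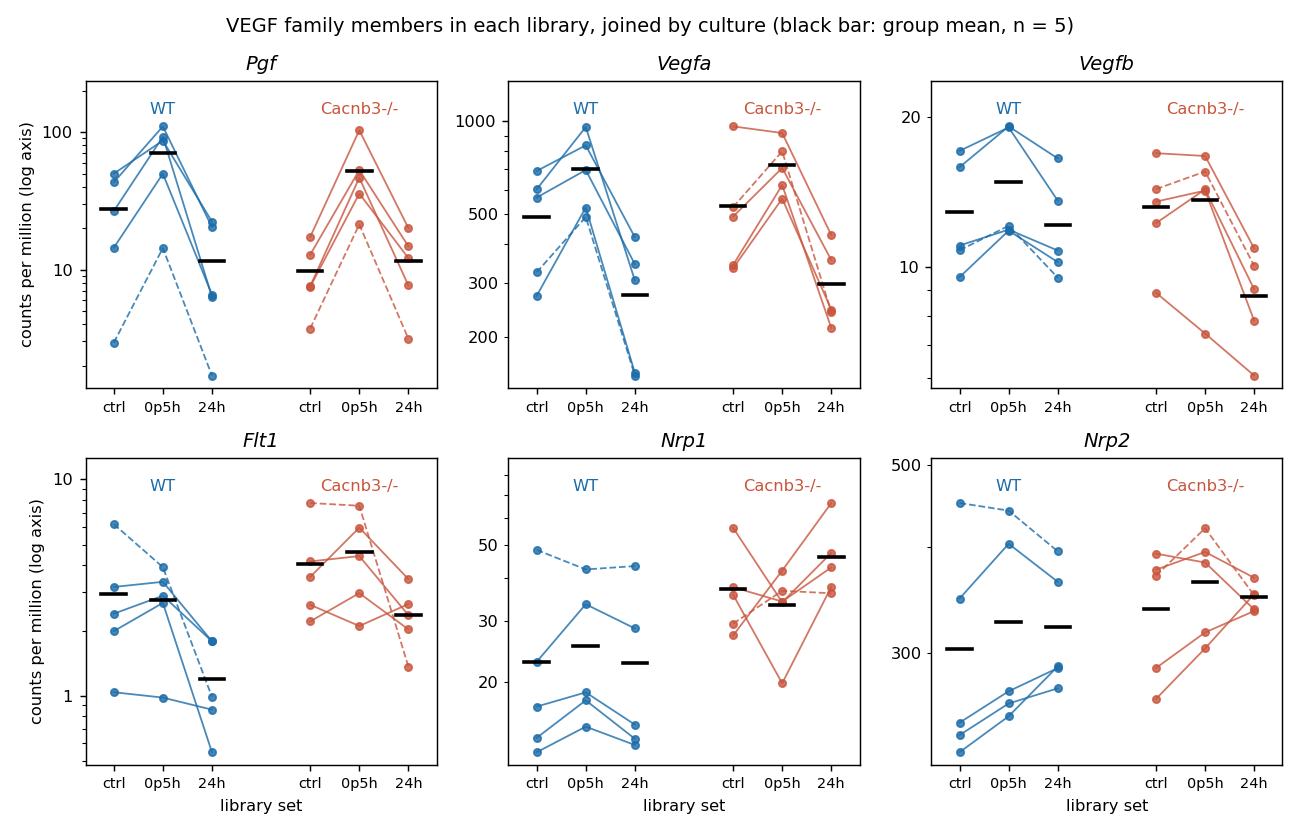
CPM (log axis) of the 6 VEGF genes in each of 30 libraries, by library set, with lines joining the 3 libraries of a culture, blue for WT and red for Cacnb3-/-, black bars at group means (n = 5) and dashed lines for cultures p974s864 and p974s865. Pgf peaks in the 0p5h library of all 10 cultures, from 14.3 to 110.2 CPM, and Nrp1 in 24h libraries runs from 36.2 to 66.2 CPM in Cacnb3-/- against 13.1 to 43.4 CPM in WT.

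*Flt1* (ENSMUSG00000029648, GRCm38 chromosome 5, 147561604 to 147726011, reverse strand) encodes VEGFR1, the receptor that all 3 ligands bind, and was low, with 7 to 184 reads per library. WT cultures had 2.39, 3.18, 1.04, 1.99 and 6.22 CPM in ctrl libraries, in the order above. They had 2.90, 3.36, 0.979, 2.68 and 3.93 CPM in 0p5h and 1.78, 1.78, 0.860, 0.547 and 0.986 CPM in 24h libraries. *Cacnb3*-/- cultures had 3.54, 4.17, 2.20, 2.63 and 7.78 CPM in ctrl libraries. They had 5.99, 4.42, 2.98, 2.10 and 7.56 CPM in 0p5h and 3.46, 2.36, 2.02, 2.65 and 1.36 CPM in 24h libraries. The highest ctrl values were those of p974s864 in WT and p974s865 in *Cacnb3*-/- BMDCs, and both were lower at 24h. From 0p5h to 24h libraries *Flt1* was lower in 5 of 5 WT and 4 of 5 *Cacnb3*-/- cultures, at log2 fold changes of -1.19 (standard error 0.41, edgeR adjusted p = 0.276) and -0.98 (standard error 0.36, edgeR adjusted p = 0.225). With the culture block the fall in WT was called (-1.15, edgeR adjusted p = 0.0300), but of the 5 fits that left out a culture it was called in 1, that without p974s855. The adjusted p was 0.0653 without p974s846, 0.0551 without p974s850 and 0.108 without p974s864, and without p974s856 the change was under 2-fold. The blocked value in *Cacnb3*-/- BMDCs was -0.96 and passed the adjusted p below 2-fold (edgeR adjusted p = 0.0409). Without culture p974s865 it was -0.53 (adjusted p = 0.0730). From ctrl to 24h libraries the log2 fold change was -1.28 in WT (standard error 0.47, edgeR adjusted p = 0.502) and -0.82 in *Cacnb3*-/- BMDCs (standard error 0.37, edgeR adjusted p = 0.444). Each moved with 1 culture, to -0.76 without p974s864 (edgeR adjusted p = 0.638) in WT and to -0.28 without p974s865 (edgeR adjusted p = 0.587) in *Cacnb3*-/- BMDCs. The ratio within a culture was 0.159 in p974s864 and 0.175 in p974s865, and between 0.919 and 1.01 in 3 of the other *Cacnb3*-/- cultures.

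*Nrp1* (ENSMUSG00000025810, GRCm38 chromosome 8, 128359073 to 128505462, forward strand) encodes neuropilin-1 and had means between 22.8 and 25.5 CPM over the 3 sets of WT BMDCs, while single WT libraries ran from 12.5 to 48.4 CPM. WT cultures had 13.8, 22.9, 17, 12.5 and 48.4 CPM in ctrl libraries, in the order above. They had 17.7, 33.7, 18.7, 14.8 and 42.5 CPM in 0p5h and 13.7, 28.6, 15, 13.1 and 43.4 CPM in 24h libraries. Culture p974s864 was the highest WT culture in each set. *Cacnb3*-/- cultures had 27.3, 37.7, 56.1, 35.9 and 29.6 CPM in ctrl libraries. They had 42.2, 34.3, 34.1, 19.8 and 36.8 CPM in 0p5h and 66.2, 43.0, 47.4, 37.8 and 36.2 CPM in 24h libraries. All 5 *Cacnb3*-/- cultures lay above the WT median in each set, as they also did for *Nrp2*, and the ranges of both genes overlapped in each set. The share of all genes with this pattern was not counted. From 0p5h to 24h libraries *Nrp1* was higher in 4 of 5 *Cacnb3*-/- cultures, at a log2 fold change of 0.48 (standard error 0.22, edgeR adjusted p = 0.282), which passed the adjusted p below 2-fold with the culture block (0.48, edgeR adjusted p = 0.0180). The blocked value did not pass without culture p974s843, p974s851 or p974s853 (edgeR adjusted p = 0.0793, 0.0561 and 0.0509). In WT *Nrp1* was lower in 4 of 5 cultures.

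*Nrp2* (ENSMUSG00000025969, GRCm38 chromosome 1, 62703285 to 62818695, forward strand) encodes neuropilin-2 and was steady over the sets. It had 303 ± 95.3, 326 ± 89.5 and 321 ± 54.4 CPM in ctrl, 0p5h and 24h libraries of WT BMDCs (SD, n = 5). It had 338 ± 57.8, 364 ± 51.0 and 349 ± 12.9 CPM in those of *Cacnb3*-/- BMDCs. In the 24h libraries of *Cacnb3*-/- BMDCs its 5 values lay between 336 and 368 CPM, a coefficient of variation of 3.70%. In WT the 2 highest cultures in each set were p974s864 and p974s850. Every fold change of *Nrp2*, between sets and between genotypes, was under 2-fold and its adjusted p over the threshold in edgeR fits of all cultures, with or without the block. Without culture p974s864 the blocked change from ctrl to 0p5h libraries in WT passed below 2-fold for *Nrp2* (0.16, edgeR adjusted p = 0.0479). In that fit *Nrp1* did so too (0.34, edgeR adjusted p = 0.0265). Of 78 fold changes (6 genes in 13 comparisons), 43 were within 1 standard error of 0, and no direction is drawn from these, so that where cultures are counted for one of them the count only describes the cultures.

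**Figure D2:**
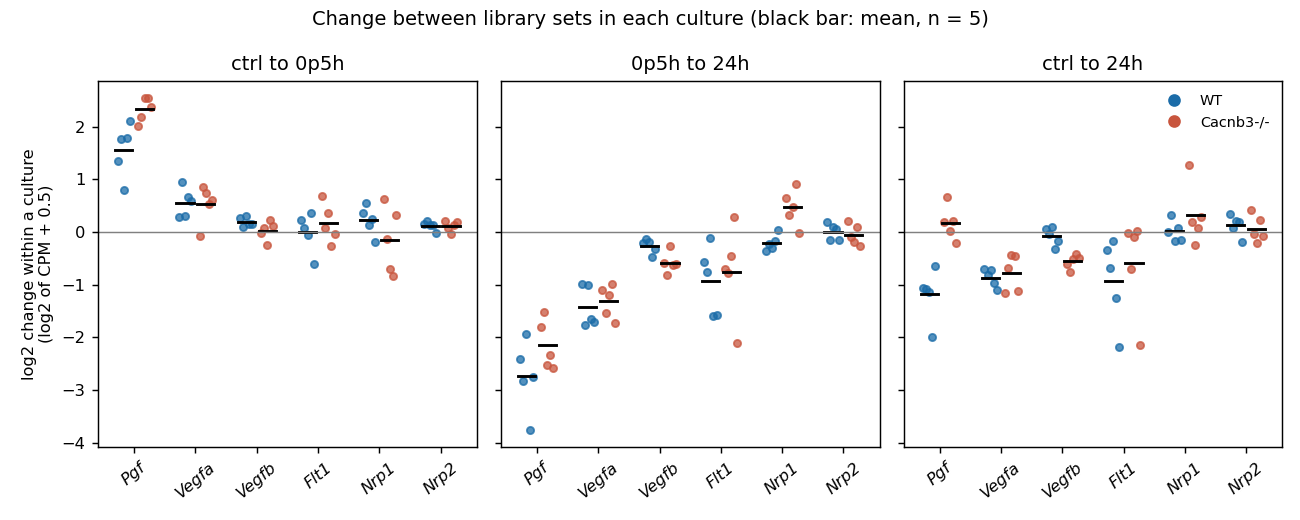
Log2 change of each VEGF gene within a culture, on the scale of log2(CPM + 0.5), for the 3 pairs of library sets, with 1 point per culture, blue for WT and red for Cacnb3-/-, and black bars at means (n = 5). Pgf lies above 0 in all 10 cultures from ctrl to 0p5h and below 0 in all 10 from 0p5h to 24h, while from ctrl to 24h it is below 0 in 5 of 5 WT and 1 of 5 Cacnb3-/- cultures.

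Counted over the 6 genes, 0 were called from ctrl to 0p5h libraries in WT (0.176% of all genes tested were) and 0 in *Cacnb3*-/- BMDCs (0.29% of all genes), by edgeR, with 0 and 1 at an unadjusted p under 0.05 (4.54% and 3.99% of all genes) and 0 and 1 called by DESeq2. With the culture block the count was 1 in each genotype, where 0.581% and 0.643% of all genes were called. From 0p5h to 24h libraries 0 of the 6 were called in WT (0.639% of all genes) and 1 in *Cacnb3*-/- BMDCs (0.66% of all genes), with 3 and 5 at an unadjusted p under 0.05 (11.2% and 17.5% of all genes) and 2 and 2 called by DESeq2. With the block the counts were 3 and 2, where 1.78% and 2.88% of all genes were called. From ctrl to 24h libraries 0 were called in WT (0.0152% of all genes) and 0 in *Cacnb3*-/- BMDCs (0% of all genes), with 2 and 3 at an unadjusted p under 0.05 (8.39% and 10.8% of all genes) and 0 and 0 called by DESeq2. With the block 1 was called in WT, where 0.926% of all genes were. The median log2 fold change of the 6 from 0p5h to 24h libraries was -0.74 in WT and -0.80 in *Cacnb3*-/- BMDCs, against 0.005 and 0.00 over all genes tested. The shares of all genes here are those of edgeR. None is given for DESeq2, so its counts cannot be set against them. Since the 6 were selected on results from these libraries, nothing is read from their share against that of all genes.

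Levels of different genes were compared per kilobase of counted exons. In ctrl libraries of WT BMDCs *Vegfa* was highest (114.5 ± 42.6 CPM per kb, SD, n = 5) and its range lay above that of every other VEGF gene. *Nrp2* (25.6 ± 8.04), *Pgf* (17.3 ± 12.3), *Vegfb* (8.02 ± 2.10) and *Nrp1* (3.88 ± 2.51) followed in CPM per kb, each overlapping the next. *Flt1* was far lower, at 0.256 ± 0.171 CPM per kb, which uses 11583 counted bases of exon. In 0p5h libraries *Pgf* moved up to the second place, at 44.7 ± 24.3 CPM per kb in WT and 32.8 ± 19.6 in *Cacnb3*-/- BMDCs, where it overlapped *Nrp2*. At 24h *Pgf* stood at 7.24 ± 5.85 and 7.30 ± 4.10 CPM per kb, overlapping *Vegfb* and *Nrp1*.

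The 4 VEGF genes outside the rule were all low. *Kdr*, for VEGFR2, had 0.521 to 7.99 CPM over the 30 libraries, and *Flt4*, for VEGFR3, had 0.0551 to 1.70 CPM. *Vegfd* had 0 to 7 reads per library and was too low to be tested. *Vegfc* had 4 to 56 reads per library and was the one ligand of the 4 measurable here that was higher at 24h than in ctrl libraries in 5 of 5 cultures of each genotype. Its CPM in WT ran from 0.384 to 1.71 in ctrl, 0.489 to 1.76 in 0p5h and 1.72 to 3.20 in 24h libraries, where the ctrl and 24h ranges did not overlap (0.918% of all genes did so upward). Its log2 fold change from ctrl to 24h was 1.63 in WT (standard error 0.40, edgeR adjusted p = 0.285), which was called with the culture block (1.72, edgeR adjusted p = 0.00697). From 0p5h to 24h it was 1.24 in WT (standard error 0.34, edgeR adjusted p = 0.142), called with the block (1.28, edgeR adjusted p = 0.00458). DESeq2 without the block called both. In *Cacnb3*-/- BMDCs the values were 1.54 from ctrl (standard error 0.41, edgeR adjusted p = 0.444) and 0.95 from 0p5h libraries (standard error 0.31, edgeR adjusted p = 0.189), the latter passing the adjusted p below 2-fold with the block (0.93, edgeR adjusted p = 0.0157). The blocked fit from ctrl also called *Vegfc*. It is kept among the alternatives because the pair of culture p974s843 correlated weakly (r = 0.0649).

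**Figure D3:**
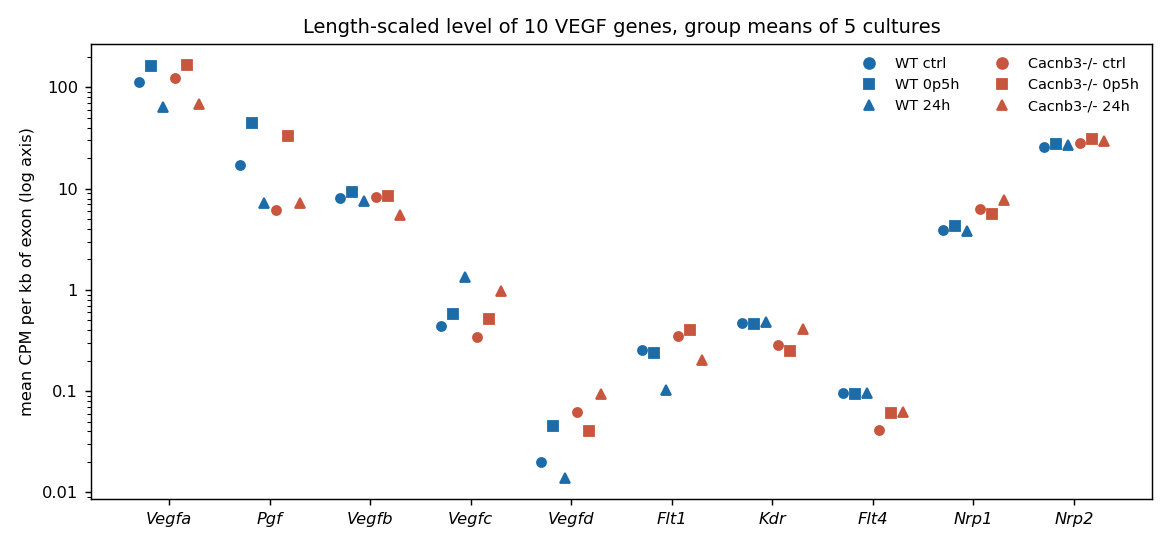
Mean CPM per kilobase of counted exon (log axis) of 10 VEGF genes in 6 groups of 5 cultures, blue for WT and red for Cacnb3-/-, with circles for ctrl, squares for 0p5h and triangles for 24h libraries. Vegfa is highest in each group, from 64.1 to 168 CPM per kb, and Vegfd, Flt4 and Flt1 lie below 0.4 CPM per kb in each group.

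The genotypes were then compared within each set, which asks whether BMDCs without *Cacnb3* differ in these genes whatever the reading of the labels. *Nrp1* in 24h libraries came nearest to a call. It had 46.1 ± 12.1 CPM in *Cacnb3*-/- and 22.8 ± 13.2 CPM in WT BMDCs (SD, n = 5), and the log2 fold change was 1.03 (standard error 0.33, edgeR adjusted p = 0.0564). DESeq2 called it (adjusted p = 0.0190), as did edgeR with all 30 libraries in one fit (adjusted p = 0.0374), without WT culture p974s864 (log2 fold change 1.40, adjusted p = 0.0377) or without *Cacnb3*-/- culture p974s865 (1.11, adjusted p = 0.0305). The fit of all 30 libraries had no term for culture, so the 3 libraries of a culture entered as if independent. Over 16 alternatives the edgeR or DESeq2 adjusted p of *Nrp1* ran from 0.0190 to 0.132. The 10 edgeR fits that each left out a culture gave log2 fold changes from 0.86 to 1.40, and 2 of them were called. In ctrl and 0p5h libraries the log2 fold changes of *Nrp1* were 0.73 (standard error 0.36, edgeR adjusted p = 0.327) and 0.41 (standard error 0.29, edgeR adjusted p = 0.489). Without culture p974s864 that in ctrl libraries was 1.20 and was called (edgeR adjusted p = 0.0309). This was the 1 call among 10 fits that each left out a culture, which ran from 0.52 to 1.20 (edgeR adjusted p up to 0.586). With the 3 libraries of a culture summed the log2 fold change of *Nrp1* was 0.67 (standard error 0.30, edgeR adjusted p = 0.207), and 1.04 without culture p974s864, which was called (edgeR adjusted p = 0.0389). Again this was the 1 call among 10 such fits, which ran from 0.52 to 1.04 (edgeR adjusted p up to 0.398).

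*Flt1* in 24h libraries had 2.37 ± 0.775 CPM in *Cacnb3*-/- and 1.19 ± 0.563 CPM in WT BMDCs (SD, n = 5), and the log2 fold change was 0.96 (standard error 0.36, edgeR adjusted p = 0.0780). All 5 *Cacnb3*-/- cultures lay above the WT median, as they also did for *Nrp1* and *Nrp2*, and the ranges overlapped. Without *Cacnb3*-/- culture p974s865 the value was 1.13 and was called (edgeR adjusted p = 0.0307). This was the 1 call among 10 fits that each left out a culture, in which the value ran from 0.80 to 1.15 (edgeR adjusted p up to 0.171). In 0p5h libraries it was 0.76 (standard error 0.40, edgeR adjusted p = 0.353), and in ctrl libraries 0.50 (standard error 0.46, edgeR adjusted p = 0.581). The value in ctrl libraries was 0.11 without p974s865 and 0.95 without p974s864 (edgeR adjusted p = 0.897 and 0.179). *Vegfb* in 24h libraries was lower in *Cacnb3*-/- BMDCs, at 8.78 ± 1.90 against 12.1 ± 2.89 CPM (log2 fold change -0.46, standard error 0.21, edgeR adjusted p = 0.128).

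*Pgf* in ctrl libraries had 9.77 ± 5.29 CPM in *Cacnb3*-/- and 27.4 ± 19.5 CPM in WT BMDCs (SD, n = 5), and the log2 fold change was -1.46 (standard error 0.61, edgeR adjusted p = 0.278). Of the 5 *Cacnb3*-/- cultures 0 lay above the WT median, but WT culture p974s864 lay below all of them. Without it the log2 fold change was -1.75 (edgeR adjusted p = 0.0524). Over 10 fits that each left out a culture it ran from -1.77 to -1.14 (edgeR adjusted p up to 0.547), and 0 were called. In 24h libraries the means were 11.5 CPM in both genotypes, and the 95% interval of the log2 fold change ran from -1.33 to 1.33. For *Vegfa* these intervals ran from -0.58 to 0.85 in ctrl, -0.40 to 0.51 in 0p5h and -0.54 to 0.79 in 24h libraries. Counted over the 6 genes, edgeR called 0 between genotypes in ctrl, 0p5h, 24h and summed libraries, where 0% of all genes were called in each. At an unadjusted p under 0.05 there were 1, 0, 3 and 1 of the 6, against 16.6%, 16.4%, 38.4% and 23.3% of all genes, by edgeR. DESeq2 called 0, 0, 1 and 0, and its share of all genes is not given, so these counts cannot be set against the edgeR shares.

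**Figure D4:**
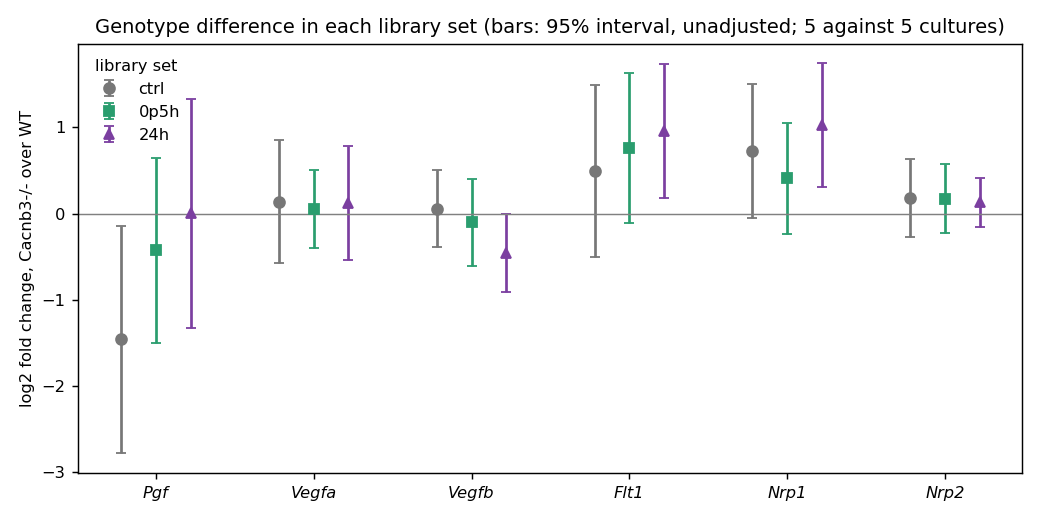
Log2 fold change of each VEGF gene in Cacnb3-/- over WT BMDCs in ctrl (circles), 0p5h (squares) and 24h libraries (triangles), with 95% intervals not adjusted for the number of genes (5 against 5 cultures). Nrp1 (1.03) and Flt1 (0.96) are highest in 24h libraries and Pgf (-1.46) is lowest in ctrl libraries, and 0 of the 18 values were called.

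Whether the changes between sets differed between genotypes was tested as an interaction. Without a block edgeR called 0 of the 6 genes for any pair of sets, with 0 at an unadjusted p under 0.05, and DESeq2 called 0. Of all genes 0% were called, and 0.223%, 4.86% and 5.88% had an unadjusted p under 0.05 from ctrl to 0p5h, ctrl to 24h and 0p5h to 24h. *Pgf* had the largest values, 1.03 from ctrl to 0p5h (standard error 0.84, edgeR adjusted p = 1.0) and 1.47 from ctrl to 24h libraries (standard error 0.93, edgeR adjusted p = 0.753), both toward higher values in *Cacnb3*-/- BMDCs. With the culture block the *Pgf* value from ctrl to 24h was called, as given with its limits among the results flagged below. *Nrp1* from 0p5h to 24h libraries had 0.63 (standard error 0.48, edgeR adjusted p = 0.705), and 0.68 with the culture block (edgeR adjusted p = 0.108).

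Of 8 regulators of HIF, all tested, and 17 HIF target genes, all tested, 0 were called in any comparison by edgeR without a block, with at most 3 regulators and 5 targets at an unadjusted p under 0.05 in a comparison. DESeq2 called 1, *Hk2*, from 0p5h to 24h libraries in *Cacnb3*-/- BMDCs. The one that passed the adjusted p below 2-fold was *Vhl*, the ubiquitin ligase subunit that marks HIF for destruction (0.46 from 0p5h to 24h libraries in WT, edgeR adjusted p = 0.0393). The median log2 fold change of the HIF targets from 0p5h to 24h libraries was -0.47 in WT and -0.44 in *Cacnb3*-/- BMDCs, against 0.005 and 0.00 over all genes. With the culture block 1 of 17 was called in WT and 2 in *Cacnb3*-/- BMDCs, all lower, and 7 and 11 passed the adjusted p at any fold, all lower. In the same fits 1.78% and 2.88% of all genes were called and 11.3% and 28.6% passed at any fold, in either direction. *Ero1a*, an oxidase of the endoplasmic reticulum, fell from 284 ± 180 to 121 ± 72.7 CPM in WT (log2 fold change -1.27, blocked edgeR adjusted p = 0.00445), and *Hk2*, a hexokinase of glycolysis, from 147 ± 44.6 to 64.1 ± 42.1 CPM in *Cacnb3*-/- BMDCs (-1.35, blocked edgeR adjusted p = 0.000640). *Egln3*, a prolyl hydroxylase that is both a regulator and a target of HIF, fell in each genotype with the block (-1.13 and -1.10, edgeR adjusted p = 0.0146 and 0.00255).

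Of 31 genes of signalling downstream of the VEGF receptors, 30 were tested and edgeR called 0 in any comparison, with or without the block, although 14 had an unadjusted p under 0.05 between genotypes in 24h libraries (38.4% of all genes did). DESeq2 called *Src*, a tyrosine kinase, between genotypes in 0p5h, 24h and summed libraries and *Prkcb*, a protein kinase C, in 24h libraries. Of 12 semaphorin and plexin partners of the neuropilins, 6 were tested in each comparison and 0 were called by edgeR or DESeq2, with at most 2 at an unadjusted p under 0.05. Of 17 other secreted factors that act on vessels, 11 to 15 were tested, and edgeR called 1 without a block, *Thbs1*, whose product thrombospondin-1 restrains vessel growth. DESeq2 also called *Spp1* and *Igf1* between genotypes in 24h libraries. *Thbs1* fell from 3711 ± 887 CPM in 0p5h to 1415 ± 345 CPM in 24h libraries of WT BMDCs (SD, n = 5), and the log2 fold change was -1.39 (standard error 0.21, edgeR adjusted p = 0.00758). In *Cacnb3*-/- BMDCs it had a log2 fold change of -1.09 with the block (edgeR adjusted p = 0.00251). All these lists were drawn up with earlier results known.

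Over the 30 libraries the levels of *Pgf* and *Vegfa* went together (Pearson r = 0.749 of log2(CPM + 0.5)), and those of *Nrp1* and *Nrp2* did too (r = 0.776). With each culture's mean taken out, r was 0.849 for the ligands and 0.373 for the neuropilins. *Vegfa* and *Vegfc* went opposite ways (r = -0.727). The genes most like *Pgf* among 13585 were *Pvr* (r = 0.934), *Smim3*, *Tnfsf9*, *S1pr3* and *Nfkbiz*, those most like *Vegfa* were *Prdx6* (0.925), *Rgcc*, *Sra1*, *Ppp1r3g* and *Hilpda*, and those most like *Vegfb* were *Galk1* (0.911), *Trappc6a*, *Smim29*, *Gm6114* and *Fbxo31*. For *Flt1* they were *Trerf1* (0.852), *Fcer1g*, *Mmp12*, *Atp1b3* and *Klf10*, for *Nrp1* *Atp6v0d2* (0.952), *Rnf128*, *Gins1*, *Acer3* and *Cd36*, and for *Nrp2* *Ranbp1* (0.899), *Abcg1*, *Slc30a1*, *Anxa1* and *Lrp11*. With each culture's mean taken out these lists changed. Of the genes named, *Pvr*, *Tnfsf9* and *Nfkbiz* stayed among the 5 most like *Pgf*, *Acer3* and *Rnf128* for *Nrp1*, and *Ranbp1* for *Nrp2*. None stayed for *Vegfa*, *Vegfb* or *Flt1*. Those most like *Vegfa* were then *Uck2* (0.967), *Runx3*, *Cish*, *Nlrp3* and *Cd14*. The 30 libraries come from 10 cultures, and libraries of a culture are not independent.

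Levels of the 6 genes were also set against summed markers of cell types, as a description. The summed level of the 6 markers of mature migratory DCs in 24h libraries was 19684 to 28441 CPM in WT and 10301 to 17783 CPM in *Cacnb3*-/- BMDCs, and culture p974s864 was the lowest WT culture in each set. Over 30 libraries, 3 from each of 10 cultures, the correlation with that sum was -0.749 for *Flt1*, -0.735 for *Nrp1*, 0.325 for *Pgf*, -0.44 for *Nrp2*, -0.144 for *Vegfa* and 0.0149 for *Vegfb*. With the granulocyte markers it was 0.678 for *Nrp2*, 0.583 for *Nrp1*, -0.664 for *Vegfa* and -0.568 for *Vegfb*, and with the DC markers 0.635 for *Vegfb* and -0.572 for *Nrp1*. With the B cell markers, which were near 0, it was 0.776 for *Nrp2*, 0.599 for *Nrp1*, -0.646 for *Pgf* and -0.564 for *Vegfa*. With the endothelial markers it was 0.569 for *Nrp2*, 0.566 for *Flt1* and -0.516 for *Pgf*. With the macrophage markers it was 0.552 for *Flt1*. With the plasmacytoid DC markers, whose sum was mostly *Bst2* (525 CPM on average), it was 0.518 for *Pgf*. The 6 DC markers summed to 12148 to 22070 CPM in 24h libraries of WT and 8401 to 16896 CPM in those of *Cacnb3*-/- BMDCs, and the 8 macrophage markers to 783 to 1782 and 701 to 1743 CPM. Granulocyte markers ran from 129.6 to 695 CPM over the 30 libraries. The 9 endothelial markers summed to 13.3 to 60.8 CPM, 3 of them above 1 CPM on average, highest in p974s864 among WT and p974s865 among *Cacnb3*-/- cultures in each set. This sum mostly followed *Vwf*, with 21.5 CPM on average over the 30 libraries, while each other marker averaged at most 4.17 CPM. *Tek* was at 0 in 22 and *Emcn* in 23 of the 30 libraries. The 8 stromal markers summed to 5.41 to 20.7 CPM. The 5 B cell markers reached at most 5.10 CPM, the 6 T cell markers 23.1 CPM and the 6 markers of mast cells and basophils 11 CPM. Of 6 plasmacytoid DC markers 2 exceeded 1 CPM on average. In bulk RNA, fewer cells of a type and less RNA per cell cannot be told apart, and the part of cell makeup in the levels of these genes was not tested.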

How the data were processed

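RNA-seq counts of 43629 genes in 30 libraries were deposited by the authors as 1 table, and per the file header they were made with featureCounts 1.5.1 on exons of Ensembl gene models (GRCm38) without a strand option, so reads from overlapping antisense genes cannot be told apart. The submitters' processing notes name STAR 2.4, DESeq2 and mm10, whereas the methods of the study name another genome build and sequencer. Symbols were matched to 38984 identifiers (89.4%), and 0 columns of other samples were present.

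Genes were kept by filterByExpr (minimum count 10, minimum total 15), scaled by TMM and tested with edgeR 4.0.16 in R 4.3.3 (quasi-likelihood F test, Benjamini-Hochberg over all genes tested), on only the libraries compared. A call needed an adjusted p under 0.05 and a 2-fold change. DESeq2 1.42.0 was an alternative. Intervals of fold changes use the t distribution with the total (residual plus prior) degrees of freedom of the quasi-likelihood test. The edgeR standard errors are the absolute log2 fold change divided by the square root of F. Other alternatives were DESeq2 size factors, no filter, 1 fit of all 30 libraries, no fold minimum, a GC trend removed (lowess span 0.3, GC known for 98.8% of kept genes), the culture number as a block and each culture left out. A lane covariate, the block in DESeq2, the block without a fold minimum and the block with cultures left out were chosen after the data were seen. The fitting code was tested on simulated data. Levels were correlated as log2(CPM + 0.5).

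Libraries with the same culture number were treated as paired where every pair's deviations from the group means correlated above 0.1 over 13755 genes. This held in 29 of 30 pairs (median r = 0.678), and the exception (r = 0.0649) was *Cacnb3*-/- culture p974s843 from ctrl to 24h, so blocked values for that change are given only among the alternatives.

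The members and all gene lists were chosen with earlier results of these data known. The 6 members were named whatever their values, list genes where called (at most 4 a list), and the 5 genes most correlated with each member. *Vhl*, *Src*, *Prkcb*, *Spp1*, *Igf1* and *Nr4a1* as the example of its list were named after their values were seen. A fold change was given a direction only where it exceeded its standard error, and counts of cultures beside others are descriptions. Promoter windows are from RefSeq. Depth limits *Flt1*, *Vegfc*, *Vegfd* and *Flt4* most.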

Additional observations from a re-analysis of the deposited data

Results flagged for a closer look

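In each of 36 groups of 5 libraries (6 genes, 6 groups) the highest and lowest library was set against the others, and 2 groups held a library far from the rest, where chance flags about 1 in 20 groups, or 1.8 of 36. *Vegfb* in 0p5h libraries of *Cacnb3*-/- BMDCs was 7.37 CPM in culture p974s852, below the other cultures. *Nrp1* in ctrl libraries of WT BMDCs was 48.4 CPM in culture p974s864, above the other cultures.

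The change of *Pgf* from ctrl to 24h libraries differed between genotypes in the fit with the culture block, at an interaction of 1.46 on the log2 scale (edgeR adjusted p = 0.0149), since it was lower at 24h in 5 of 5 WT cultures and in 1 of 5 *Cacnb3*-/- cultures. The culture numbers passed the pairing check for this change in WT and not in *Cacnb3*-/- BMDCs, and without the block the interaction was 1.47 (edgeR adjusted p = 0.753). With the block it was called in 6 of 10 fits that left out a culture and lost without *Cacnb3*-/- culture p974s851, p974s852 or p974s853 or WT culture p974s855, at adjusted p from 0.0503 to 0.0730.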

How the results depend on the processing

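Of the fold changes of the 6 genes recomputed under settings other than leaving out a culture, 238 kept their direction and their side of the threshold, 43 gained a call, and 0 lost a call or reversed. These cover the 35 fold changes larger than their standard error. Only 1 of the 35 was called without a block, so only that call could be lost, and the 0 is no measure of how firm calls are. Fits that left out a culture, not counted here, lost that call (*Vegfa* from 0p5h to 24h in *Cacnb3*-/- BMDCs) in 4 of 5 cases. Levels moved by less than 1 SD on raw totals in 36 of 36 groups. Counts of the 6 genes called without a block and their changes were as follows, and the causes were not tested. From 0 in the WT change from ctrl to 0p5h, the replicate block, alone, with GC removed or in DESeq2, gave 1, and 2 without a fold minimum. From 0 in the WT change from ctrl to 24h, the block gave 1 alone and 2 without a fold minimum, with GC removed or in DESeq2. From 0 in the WT change from 0p5h to 24h, DESeq2, no filter, all 30 libraries and lane gave 2, GC removed gave 1, and each fit with the block gave 3. From 0 in the *Cacnb3*-/- change from ctrl to 0p5h, DESeq2, no filter, lane and each fit with the block gave 1. From 1 in the *Cacnb3*-/- change from 0p5h to 24h, DESeq2, no filter, lane and the block alone, with GC removed or in DESeq2 gave 2, and the block without a fold minimum gave 5. In that last fit 28.6% of all genes tested passed, and 11.3% did in the like fit for WT. Between genotypes in 24h libraries, DESeq2 and all 30 libraries gave 1 in place of 0. For most of these settings no share of all genes is given, so nothing about the 6 genes is read from these counts or those below.

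For ctrl to 24h the numbers passed the pairing check in WT and not in *Cacnb3*-/- BMDCs, where 1 of 5 pairs fell short, although 29 of all 30 pairs of libraries correlated best with their own number. For that change the block gave 2 in *Cacnb3*-/- BMDCs without a fold minimum (*Vegfa* and *Vegfb*) and 1 in the interaction in each fit with the block (*Pgf*), in place of 0. *Vegfc*, outside the 6, was called there in *Cacnb3*-/- BMDCs with the block (1.52, edgeR adjusted p = 0.0140), as it was in WT. The block changed no other count of calls among the 6. Leaving out each culture gave 0 to 1 calls for the WT change from 0p5h to 24h, both *Cacnb3*-/- changes from or to 0p5h, and genotype in ctrl and summed libraries, and 0 to 2 for genotype in 24h libraries. In the *Cacnb3*-/- change from ctrl to 0p5h the 1 call was *Pgf* without culture p974s865 (edgeR adjusted p = 0.0261). Leaving out a culture changed no other count. Low depth limits *Flt1* (7 to 184 reads per library) most among the 6 genes.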
